A study of Homo sapiens with 8 samples.

Results

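ZNF721, ZNF827, ZNF22, ZNF532 and ZNF37A are 5 zinc finger genes over which RNA labelled as bound by eIF4G2 was listed in human cardiac fibroblasts. They were chosen by name, for having a listed region that lies inside the gene or overlaps it, and they are 5 of 861 genes with such a region. Together they carry 16 of 3210 listed regions. The list in which each gene appears is therefore how it was chosen, and it is given as a description with no test.

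The cells were IHCF, immortalized human cardiac fibroblasts grown with serum and insulin, infected with a lentivirus that carried full-length eIF4G2 or, as the control, a scramble vector. RNA that came down with an eIF4G2 antibody was sequenced (RIP-seq). The 8 libraries form 4 groups of 2: eIF4G2-bound RNA of overexpressing cells, eIF4G2-bound RNA of control cells, total RNA of overexpressing cells and total RNA of control cells. Control cells carry the scramble vector and their own eIF4G2, and both conditions were precipitated with the same antibody. The data are 2 deposited lists of bound regions on GRCh38, 1 for overexpressing cells (the OE list) and 1 for control cells (the control list). Their names are the basis for the conditions. The names also hold the text mov10, whose meaning is not given in the sources used here. That the listed RNA came down with eIF4G2 rests on the sample labels.

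The lists hold no read count, score, p-value or value per library, and depth is unknown. Each bound group has 2 libraries, but without values per library no comparison of the lists can use replicates. A gene outside a list is not shown to be unbound, and fewer molecules of an RNA cannot be told apart from weaker binding. EIF4G2, on chromosome 11, had no region in either list, so the overexpression could not be checked. Of 8 fibroblast markers, PDGFRA and VIM lie on chromosomes 4, 10 and 18, which carry nearly all regions, and none of the 8 had a region. The 9 markers of cardiomyocytes, endothelial cells and leukocytes had none either, so the labelled cell type could not be checked from the lists.

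C2H2 zinc finger proteins form the largest family of human transcription factors. Each finger is a short fold in which cysteines and histidines hold a zinc ion, and arrays of fingers bind DNA. Many members carry a KRAB domain, which recruits the corepressor TRIM28 and silences chromatin, and the genes often lie in tandem clusters of similar sequence. eIF4G2 is a relative of the scaffold eIF4G1 that cannot bind the cap-binding protein eIF4E and takes part in initiation by other routes.

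The OE list held regions over all 5 genes and the control list over ZNF721 and ZNF827. ZNF721 had 4 regions in the OE list and 5 in the control list, and ZNF827 had 1 and 2. ZNF532 had 2 regions, and ZNF22 and ZNF37A 1 each, all in the OE list. List membership went with the chromosome. ZNF721 and ZNF827 lie on chromosome 4, where 27.3% of coding genes had a region in the OE list and 43.1% in the control list. ZNF22 and ZNF37A lie on chromosome 10, where 9.13% and 4.09% did. ZNF532 lies on chromosome 18, where 60% of coding genes had a region in the OE list and 0% in the control list, which has no region on that chromosome. Nothing about ZNF532 itself can be read from its absence in the control list.

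ZNF721 (ENSG00000182903) is a C2H2 zinc finger gene of the cluster at the end of the short arm of chromosome 4. It spans 439988 to 499156 on the minus strand, 59.2 kb, in RefSeq. In the OE list its regions lie at 440106 to 441825 (1720 bp), 481171 to 482600 (1430 bp), 495361 to 495790 (430 bp) and 496401 to 496800 (400 bp). In the control list they lie at 439461 to 441395 (1935 bp), 446556 to 446770 (215 bp), 446801 to 447400 (600 bp), 480956 to 482245 (1290 bp) and 498801 to 499600 (800 bp). The lists thus share a region at the 3′ end of the RefSeq gene and another well inside it, and differ elsewhere.

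At the 3′ end of ZNF721 the lists have 1290 bp in common, 75% of the OE region and 66.7% of the control region. The OE region stops 118 bp short of the RefSeq gene end. The control region runs 527 bp past that end and covers the 3′ ends of 2 of the 6 Ensembl transcripts of ZNF721 in the tables. The transcripts ENST00000506646, ENST00000507078 and ENST00000515578 run past the RefSeq end, to 426789, 435770 and 425815. The regions of both lists lie inside these transcripts, not at their 3′ ends. Further inside the gene the lists have 1075 bp in common, 75.2% of the OE region and 83.3% of the control region. That shared stretch lies at a relative position of 0.292 in the OE list and 0.297 in the control list, where 0 is the start of the gene and 1 its end. Only the transcripts ENST00000338977 and ENST00000511833 reach it; the other 4 start further downstream. No other gene lies under it.

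The lists differed at the start of ZNF721. The 800 bp control region there covers the start of both long transcripts and runs 444 bp upstream of the gene. PIGG, which encodes a transferase of glycosylphosphatidylinositol anchor synthesis, is transcribed in the opposite direction from 499210, so the same region also covers the start of PIGG. PIGG itself had 3 regions in the OE list, the first from 521591, and 2 in the control list. No OE region covers the start of ZNF721. The nearest are the regions of 400 and 430 bp, which begin 2356 and 3366 bp inside the gene, are 610 bp apart and overlap no control region. At 446556 to 447400 the control list has 2 regions separated by 30 bp, with no counterpart in the OE list.

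Several ZNF721 regions also lie over other genes. The 3′ region of both lists, and the control pair at 446556 to 447400, lie over ABCA11P as well, a transcribed pseudogene of an ABC transporter on the same strand. They also lie over ENSG00000281016, a transcript on the opposite strand annotated as antisense to ZNF721. Regions carry no strand, so these 1 OE and 3 control regions cannot be given to ZNF721 alone. The ZNF721 transcript ENST00000515578 has the same span, 425815 to 474051, as the ABCA11P transcripts ENST00000507854 and ENST00000514396. Without regions shared with another gene, ZNF721 had 3 regions in the OE list and 1 in the control list.

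**Figure D1:**
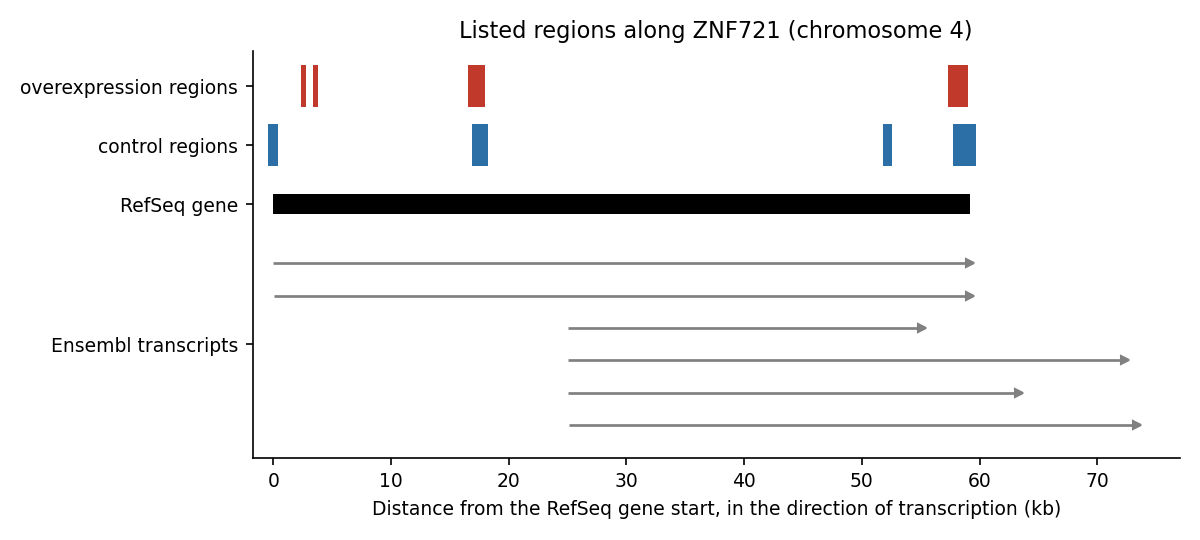
Regions listed over ZNF721, by distance from the RefSeq gene start in kb, with OE regions (red) above control regions (blue), the RefSeq gene (black) and the 6 Ensembl transcripts of the tables (grey, arrowheads at 3′ ends). Regions of both lists overlap near 17 kb and at the 3′ end, the 800 bp region over the start is in the control list, and the control pair near 52 kb, 30 bp apart, appears as 1 bar.

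ZNF827 (ENSG00000151612) encodes a zinc finger protein known for recruiting the NuRD chromatin remodelling complex to telomeres. It spans 145757627 to 145938823 on the minus strand of chromosome 4, 181 kb. Its OE region lies at 145758176 to 145759600 (1425 bp). Its control regions lie at 145757531 to 145762045 (4515 bp) and 145902401 to 145903945 (1545 bp). The OE region falls wholly inside the wide control region and takes up 31.6% of it.

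The wide control region of ZNF827 was the widest region of the 5 genes and ranked 7 of 1185 among control regions of chromosome 4. It covers the 3′ ends of 15 of the 18 ZNF827 transcripts in the tables, at 13 different positions from 145757627 to 145760775. The OE region covers the 3′ ends of 2 of them, at 145758535 and 145759007. It stops 549 bp short of the gene end, whereas the control region runs 96 bp past it. The second control region lies near the front of the gene, at a relative position of 0.197. It covers the start of ENST00000655597 and the 3′ end of ENST00000671699, at 145902928, and it overlaps no OE region.

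Both regions at the 3′ end of ZNF827 also lie over C4orf51, an open reading frame gene on the opposite strand, and cannot be given to ZNF827 alone. The control region at 145902401 lies over ZNF827 and no other gene. With regions over another gene left out, ZNF827 therefore remained in the control list and had no region in the OE list.

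**Figure D2:**
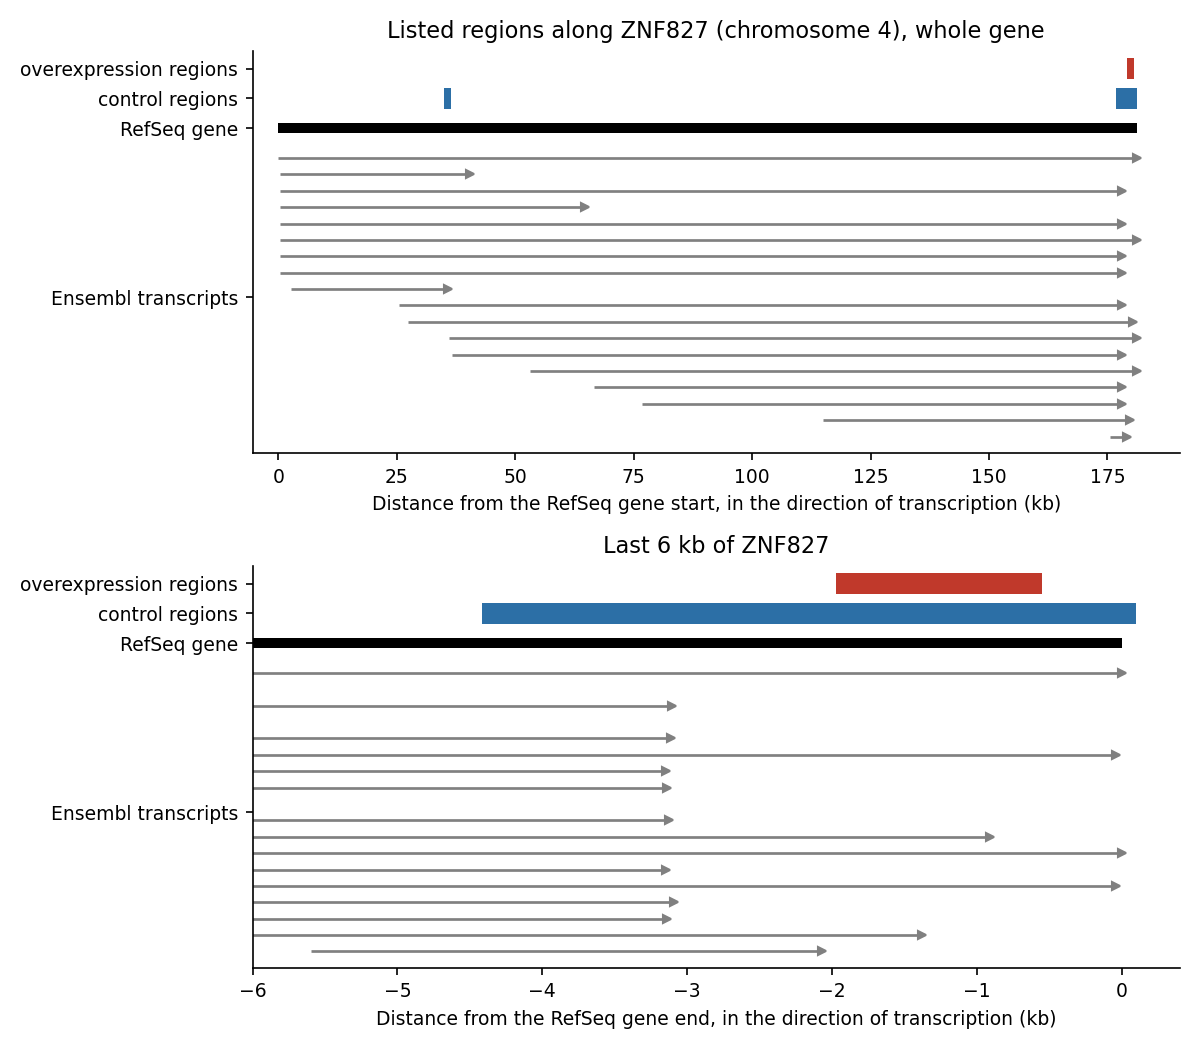
Regions listed over ZNF827, by distance in kb from the RefSeq gene start (upper panel) and, for the last 6 kb, from the gene end (lower panel). Overexpression regions (red) stand above control regions (blue), with the RefSeq gene in black and 18 Ensembl transcripts in grey with arrowheads at their 3′ ends. The 1425 bp OE region lies within the 4515 bp control region, which also takes in the group of 3′ ends near -3 kb.

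ZNF22 (ENSG00000165512) is the human counterpart of mouse Krox-26, a zinc finger gene known from developing teeth. It is the shortest of the 5 genes, spanning 45000923 to 45005326 on the plus strand of chromosome 10 (4404 bp). Its OE region lies at 45003651 to 45006110 (2460 bp), begins 2728 bp into the gene and runs 784 bp past its end. The part inside the gene, 1676 bp, is 38.1% of its length, against 0.786% to 6.73% for the other genes in the OE list. In the tables the region also lies over CEP164P1, a pseudogene on the opposite strand, through the single Ensembl transcript ENST00000456938 (45002222 to 45071588). The RefSeq record of CEP164P1, 45070765 to 45071268, does not reach the region, and no other RefSeq gene lies under it. The control list had no region over ZNF22.

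ZNF37A (ENSG00000075407), a KRAB zinc finger gene, spans 38094337 to 38150293 on the plus strand of chromosome 10 (56 kb). Its OE region lies at 38120981 to 38123850 (2870 bp), the widest of the 9 OE regions. In relation to the whole gene it lies in the middle, at a relative position of 0.502. Its position differs by transcript: ENST00000351773 ends under the region, ENST00000361085 ends at 38125544, and ENST00000638053 runs on to the end of the gene. In the tables the region also lies over PLD5P1, a pseudogene on the same strand, through the single 266 kb Ensembl transcript ENST00000640275, which starts at 38094368. The RefSeq record of PLD5P1, 38310047 to 38333168, does not reach the region. By RefSeq spans the region lies over ZNF37A alone.

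Among the 121 OE regions of chromosome 10, the region of ZNF37A ranked 10 by width and that of ZNF22 ranked 14, with a median width of 1025 bp over that chromosome. ZNF37A has the sequence relatives ZNF37BP and ZNF37CP on chromosome 10, both annotated as pseudogenes and neither with a region. How reads that match several places were treated is not given in the sources used here. In the OE list, the next region lay 6050 kb below and 6220 kb above ZNF37A. For ZNF22 the next region lay 5.68 kb below the gene, and the next above it 3440 kb away.

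ZNF532 (ENSG00000074657), a gene known as a fusion partner of NUT in NUT carcinoma, spans 58862924 to 58986480 on the plus strand of chromosome 18 (124 kb). Its OE regions lie at 58953491 to 58953900 (410 bp) and 58984821 to 58986700 (1880 bp). The wider region covers the 3′ ends of 6 of the 10 ZNF532 transcripts in the tables and runs 220 bp past the gene end. It ranked 44 of 1339 by width on chromosome 18, where the median region was 235 bp wide. The narrower one lies at a relative position of 0.735, 307 bp inside ENST00000592249, a transcript that starts within the gene. No other gene lies under either region, in the tables or by RefSeq spans.

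**Figure D3:**
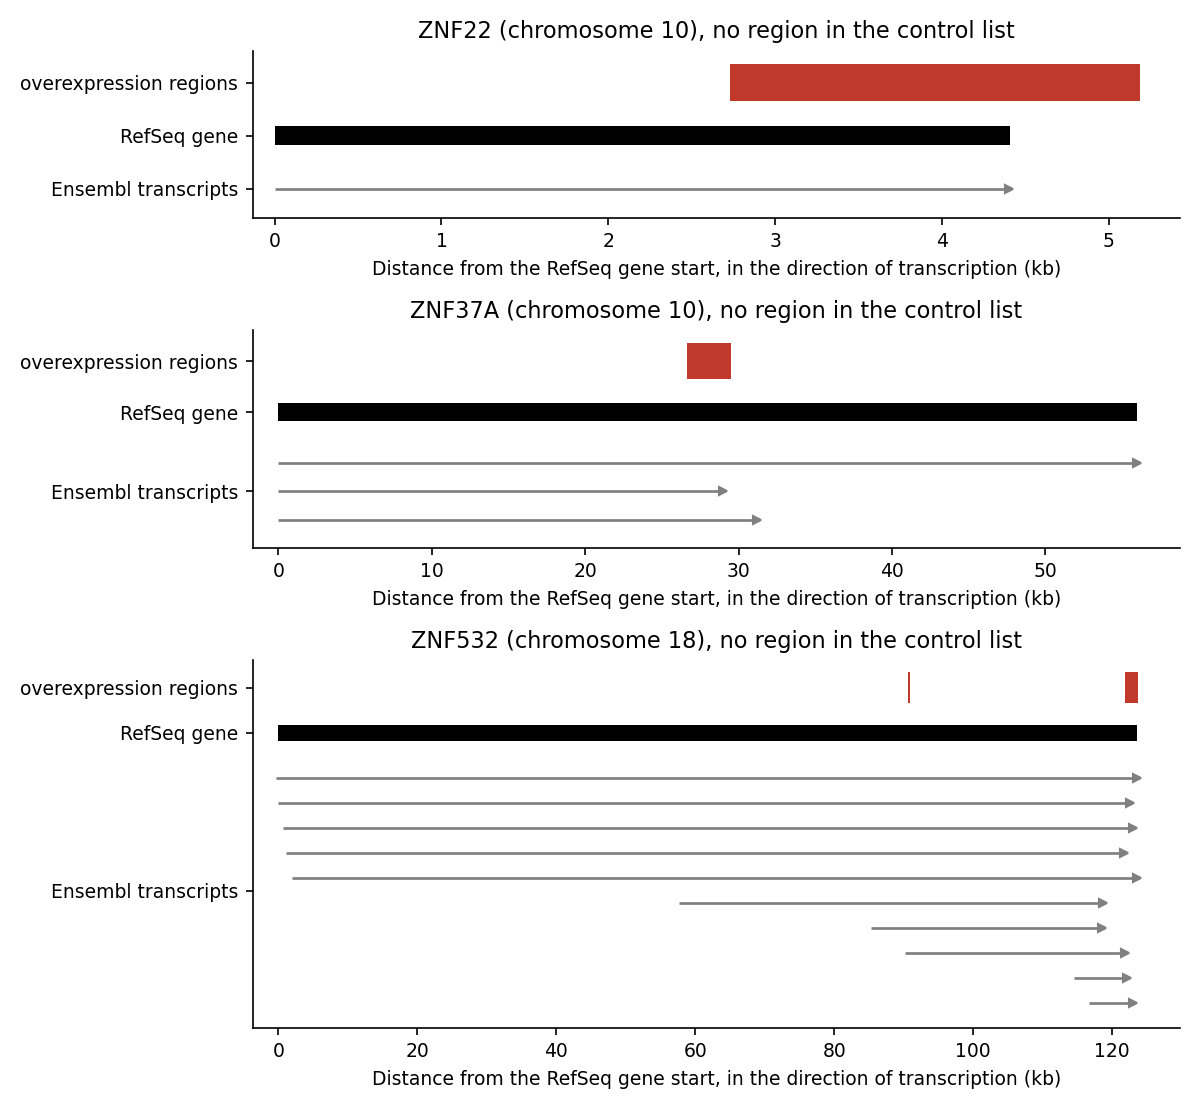
Overexpression regions (red) over ZNF22, ZNF37A and ZNF532, by distance in kb from the RefSeq gene start, with the RefSeq gene in black and Ensembl transcripts in grey with arrowheads at their 3′ ends. The ZNF22 region extends past the gene end, the ZNF37A region covers the end of 1 of 3 transcripts, and the wider ZNF532 region covers 6 transcript ends.

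Where along the genes the regions lie was not used to choose them. With the middle of a region as its position, 3 of 9 OE regions and 2 of 7 control regions lay in the last 10% of the gene or beyond. For other genes with a RefSeq match the shares were 35.8% of region and gene pairs in the OE list and 42.8% in the control list. The region of ZNF22 fell just outside, at 0.899. The 3′ end of at least 1 transcript lay under 4 of 9 OE and 3 of 7 control regions. For all other genes, matched or not, it was 24.2% and 31.8% of pairs. A transcript start lay under 0 of 9 OE and 2 of 7 control regions, against 10.1% and 12.8%. With 16 regions in all, no difference from other genes can be drawn from these counts.

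Of the 9 OE regions, 3 overlapped a control region by at least 1 bp, and of the 7 control regions, 3 overlapped an OE region. On chromosome 4 alone the counts were 3 of 5 and 3 of 7. Over all regions of that chromosome the shares were 65% of OE and 25.5% of control regions. In the tables, other genes lay under 4 of 9 OE and 5 of 7 control regions. By RefSeq spans, 7 OE and 2 control regions lay over 1 gene alone. Among regions in other genes, 21.8% of the OE list and 18.9% of the control list lay over more than 1 gene of the tables.

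The region widths have a grain that limits these comparisons. All 16 regions end on a multiple of 200, 205 or 215 bp and start 1 bp after such a multiple. The same holds for all regions of both lists on chromosomes 4, 10 and 18. Chromosome 4 uses steps of 200 and 215 bp, chromosome 10 steps of 205 bp and chromosome 18 steps of 205 and 215 bp. A distance such as the 118 bp between the ZNF721 region and the gene end is below 1 step. The lists also differ in their narrowest regions: on chromosome 4, 0 of 491 OE regions and 273 of 1185 control regions (23%) were under 400 bp. The 215 bp control region of ZNF721 is of a width that the OE list does not hold on that chromosome.

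**Figure D4:**
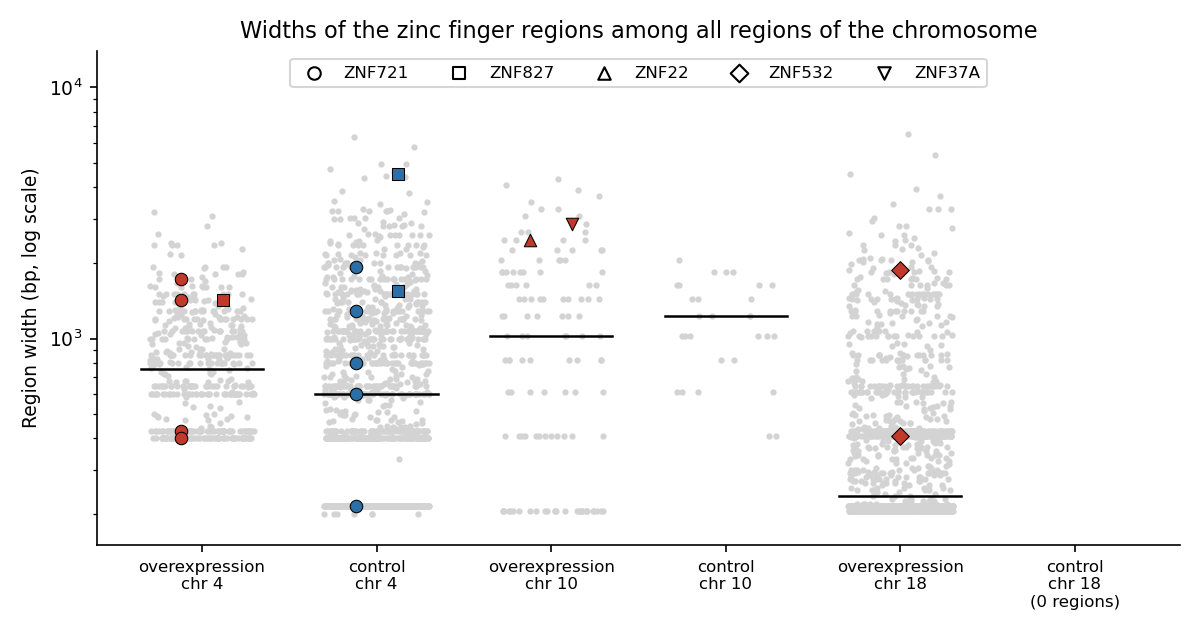
Widths in bp, on a log scale, of all listed regions of chromosomes 4, 10 and 18 (grey points) with their median (black line), for the OE list left of the control list. Regions of the zinc finger genes are red in the OE list and blue in the control list, with a symbol per gene. Of the zinc finger regions, 7 of 9 in the OE list and 5 of 7 in the control list are wider than the median of their list and chromosome, and the OE list has no region under 400 bp on chromosome 4.

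Covered length, the summed width of the regions of a gene, was used where other data would give a level. ZNF721 had 3980 bp in the OE list and 4840 bp in the control list, a ratio of 0.822. ZNF827 had 1425 bp and 6060 bp, a ratio of 0.235. Among the 223 other genes of chromosome 4 with regions in both lists the median ratio was 0.598, and 165 were longer in the control list. Of these genes, 82 had a ratio at least as high as ZNF721 and 20 a ratio as low as ZNF827 or lower. Counting the part of each region inside the RefSeq gene gave ZNF721 a ratio of 1.03. Of its control regions, 444 bp at the start and 527 bp at the end lie outside that span. The Ensembl transcripts of ZNF721 that end past the RefSeq gene do run over those 527 bp, as does ABCA11P. Divided by the covered length of each list on chromosome 4, the ratio was 1.97 for ZNF721 and 0.562 for ZNF827. The division changes every gene by the same factor, so it raises the median of the other genes too and leaves their order unchanged. No direction can therefore be given for ZNF721. For ZNF827, all 1425 bp in the OE list and 4515 of 6060 bp in the control list also lie over C4orf51. No direction is given for ZNF827 either.

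ZNF22, ZNF37A and ZNF532 had 2460, 2870 and 2290 bp in the OE list and no region in the control list. On chromosome 10 the median over listed genes was 2255 bp in the OE list, and on chromosome 18 it was 2430 bp. By covered length in the OE list, ZNF721 ranked 26 of 268 genes on chromosome 4 and ZNF827 ranked 134. In the control list they ranked 69 and 42 of 430. ZNF37A ranked 30 and ZNF22 34 of 85 on chromosome 10, and ZNF532 ranked 131 of 249 on chromosome 18. Each shares its list status with other genes of its chromosome. On chromosome 4, with 473 genes in either list, 224 others were in both. On chromosome 10, with 103 genes in either list, 68 others were in the OE list alone. On chromosome 18, with 249 genes listed, 248 others were, as the control list has no region there.

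The counts of listed neighbours are small and are given beside the share of coding genes listed on the chromosome. Of 20 RefSeq coding genes within 300 kb of ZNF721, 5 had a region in the OE list and 7 in the control list, where the chromosome had 27.3% and 43.1%. Its cluster neighbour ZNF718 was in both lists, with 4 regions in each, while ZNF141 and ZNF732 were in neither. The control regions of PIGG, counted near ZNF721, include the region over the start of ZNF721. Within 300 kb of ZNF827, 2 of 5 genes were in the OE list and 4 in the control list. Both counts include C4orf51, which was listed only through the 3′ regions that also lie over ZNF827. Around ZNF37A the other zinc finger genes ZNF248, ZNF25 and ZNF33A had no region in either list. Chromosome 10 as a whole had 9.13% of coding genes in the OE list and 4.09% in the control list. Around ZNF22, on the same chromosome, RASSF4 alone of 5 genes was in the OE list and none was in the control list. Around ZNF532, ALPK2, MALT1 and SEC11C were in the OE list, 3 of 5 where chromosome 18 had 60%.

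Other coding genes with a ZNF symbol on chromosomes 4, 10 and 18 numbered 28, and 8 of them had a region in the OE list and 4 in the control list. With the 5 genes counted in, the OE list held 13 of 33 and the control list 6 of 33, but those 5 were chosen for being listed, so no difference from other coding genes is read from the counts with or without them. On chromosome 18 the OE list held 6 of 8 without ZNF532 and 7 of 9 with it, where 60% of all coding genes were listed. On chromosome 4 it held 2 of 6 without ZNF721 and ZNF827 and 4 of 8 with them, where 27.3% were listed. The control list held 4 of 6 and 6 of 8 there, where 43.1% were listed. On chromosome 10 the OE list held 0 of 14 without ZNF22 and ZNF37A and 2 of 16 with them, where 9.13% were listed, and the control list held 0 of 16.

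Counting all RefSeq gene types and the ZBTB, ZFP, ZSCAN and ZKSCAN symbols as well, 17 other genes with such a symbol were listed. Among them are noncoding genes and a pseudogene. Most genes with such symbols on chromosomes 4, 10 and 18 had no region in either list, and no share is read from the 17. Among these 17, ZNF24, a transcriptional repressor, had 8 regions (4250 bp) in the OE list, and the pseudogene ZNF271P next to it had 8 (5050 bp). The noncoding genes ZNF236-DT (4185 bp) and ZNF407-AS1 (3575 bp) followed, all 4 on chromosome 18. In the control list alone were ZNF330 (1545 bp), ZBTB49 (830 bp) and ZNF595 (615 bp) of chromosome 4. ZNF718 had 3235 bp in the OE list and 2705 bp in the control list, and ZNF518B 1445 and 2795 bp.

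**Figure D5:**
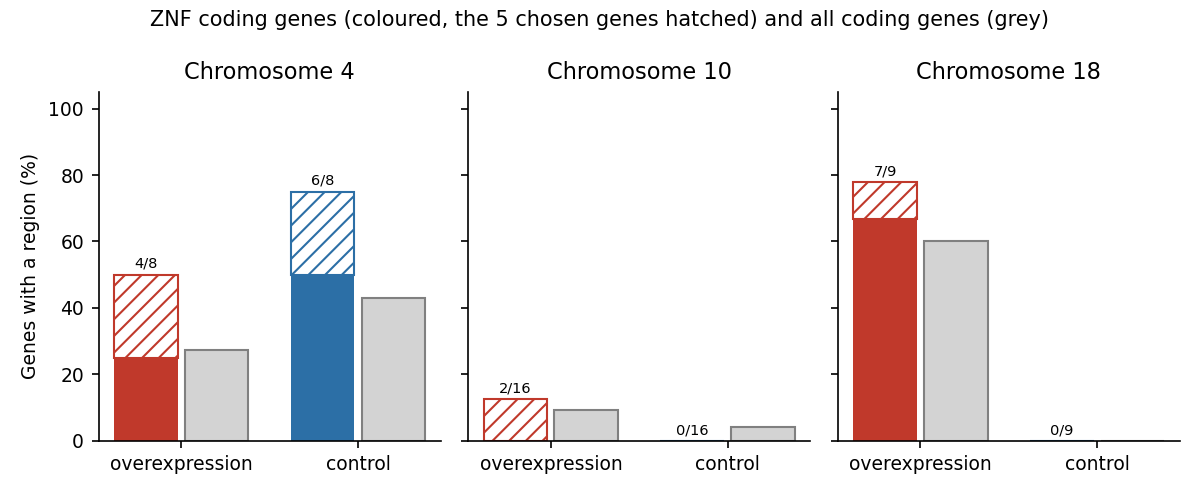
Percentage of ZNF coding genes with a region in the OE list (red) and the control list (blue), with the counts above the bars, beside the percentage of all coding genes of the chromosome (grey). The hatched part of a bar is the 5 genes chosen for being listed and the plain part the other ZNF genes; on chromosome 10 the OE bar, 2 of 16, is hatched throughout.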

How the data were processed

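Per the labels' protocols, DNase-treated RNA went into NEBNext Ultra II libraries. Tools in the submitters' processing notes are HISAT2 2.1.0, Trimmomatic 0.36 and bcl2fastq 2.19.0, with the build GRCh38 (hg38). Not given in the sources used here are the caller of the regions, its threshold, whether total RNA served as background, and how replicates were combined. For each condition the authors deposited 1 table. Per the file headers, it holds 1-based positions, widths and distances in bp, with each region repeated for every transcript it overlaps or lies nearest to.

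Entries were reduced to 1 per region and gene, keeping regions inside a gene or overlapping it. Genes were matched to RefSeq records of GRCh38.p14 by symbol or synonym, which matched all 5 zinc finger genes and 726 of 861 listed genes. The tables hold only transcripts under or nearest to a region, and exons were not examined. The code that counts overlaps was checked on simulated data: of 200 overlaps planted within regions, 200 were found. This bears on the code alone. Tests per replicate had been planned for counts, which the tables do not hold.

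The genes and lists were chosen with earlier results of these data known. The named genes were EIF4G2, the 5 genes and genes under or near their regions. Up to 4 other genes with a zinc finger symbol were named per list status, by covered length. Neighbours were added after the data were seen. Python 3.11.15, pandas 2.3.3, numpy 2.4.6, scipy 1.17.1 and matplotlib 3.10.9 were used.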

Additional observations from a re-analysis of the deposited data

How the results depend on the processing

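With regions over another gene left out, the OE list held 2 of the 5 genes (ZNF721 and ZNF532) in place of 5, and 5 regions in place of 9; the control list still held ZNF721 and ZNF827, with 2 regions in place of 7. Those counts use the genes of the tables. By RefSeq spans, tried only with the counts already known, the OE list held 4 of the 5 genes (all but ZNF827) and 7 regions, since ZNF22 and ZNF37A share their regions only with long Ensembl transcripts of pseudogenes; the control list held ZNF721 and ZNF827, with 2 regions. With other genes taken from the tables, a choice made for this count after seeing the data, 1 region in each list covered a transcript 3′ end, in place of 4 and 3. With regions of at least 400 bp, 5 other ZNF genes were in the OE list in place of 8. The covered length of ZNF721 and ZNF827 together, overexpression over control, was 0.496 as reported, 0.55 inside the genes and 0.488 with the widest region of each. Divided by the covered length of each list on chromosome 4 it was 1.19, with 1.97 for ZNF721 and 0.562 for ZNF827; this divides every gene by the same constant. Nearest genes, merging within 1000 bp, 50% overlap and other positions or gene families kept the counts within 1.5 times. A family defined by protein motifs and settings per replicate were not run. No paired analysis was possible because the tables hold no value per replicate. Depth is unknown, so no limit of detection can be given.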

Other observations

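A zinc finger cluster on the long arm of chromosome 18, from ZNF397 at 35241034 to ZNF396, carried OE regions; the median over listed genes of that chromosome was 4 regions a gene. ZNF397 and ZSCAN30 had 7 regions each (2735 and 2875 bp), the pseudogene ZNF271P 8 (5050 bp), ZNF24 8 (4250 bp) and ZNF396 2 (420 bp). For ZNF397, 3 of its 7 regions lay over no other gene, and for ZSCAN30 2 of 7, so part of their regions cannot be given to 1 gene. All 8 regions of ZNF271P and all 8 of ZNF24 lay over no other gene. Elsewhere on chromosome 18, among coding genes of the same symbols, ZNF516 had 10 regions (at most 375 bp wide), ZBTB14 5, ZNF236 3 (at most 820 bp wide) and ZNF519 and ZNF532 2 each, while ZNF521, ZNF407 and ZBTB7C had none. Whether the cluster differs from the rest of the chromosome was not tested. These genes were picked for their position after their values were seen.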
